A study of Mus musculus with 8 samples.

Results

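Cytokines and receptors linked to the resolution of inflammation were examined in activated mouse microglia. The 10 genes were named by symbol and not by a cut on their measured values, although earlier results of these data were known. They were the cytokine Il10, the cytokine receptor chains Il10ra, Il4ra and Il13ra1, the endocytic and scavenger receptors Mrc1, Cd163, Stab1 and Msr1, and the secreted proteins Chil3 and Retnla. Of the 31406 genes in the deposited table, 9 were of this group. Chil3 had no entry there, so only its promoter was examined. Of these 9 genes, 7 passed the low-count filter, which 18756 genes passed in all, and Cd163 and Retnla did not.

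Sequencing gave 8 libraries from primary cultures of wild-type (WT) microglia, all kept for 15 days in culture and activated for 48 h with lipopolysaccharide (LPS, 0.01% v/v) and interferon-γ (0.002% v/v). In 4 libraries the cells had received the A2A receptor antagonist SCH 58261 (A2A antagonist group), and in 4 the same antagonist with 200 nM of 2-Cl-IB-MECA, an agonist of the A3 receptor (dual group), added at 24, 32 and 40 h of activation. Groups were taken from the titles of the samples, which the names of the count columns match. The treatment field of the labels states the reverse for all 8 libraries, so every direction given here rests on the titles. The methods describe cultures from the striatum of C57/BL6 pups a few days old with the meninges removed. Activation and antagonist were shared by both groups. The methods mention several pregnant animals but assign no library to a litter, and their replicate numbers differ from the 4 libraries per group deposited. No date or batch was given, and nothing says that the libraries of a group came from separate cultures, so p-values measure the spread between these libraries, which may be technical.

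The libraries held 32630602 to 45878639 counts and 26155 to 26809 genes with a count. Microglial genes were present, with mean levels over the 8 libraries of 422 RPKM (CPM, counts per 1e6 counts, per kilobase of gene length) for C1qa, 46.3 RPKM for Csf1r and 20.8 RPKM for Cx3cr1, while Tmem119 and P2ry12, which mark microglia in the undisturbed brain, had 3.20 and 0.72 RPKM. Transcripts of other cells were also abundant: the astrocyte genes Gfap and Aqp4 had 392 and 258 RPKM and the fibroblast gene Col3a1 had 78.2 RPKM. The levels below are therefore those of the culture and not of one cell type. In such bulk RNA, fewer cells of a type and less RNA per cell cannot be told apart.

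Interleukin-10 is a secreted cytokine that restrains macrophage activation. It binds a receptor made of Il10ra, the ligand-binding chain, and Il10rb, and signals through Stat3, which induces Socs3. Interleukin-4 and interleukin-13 act through receptors that contain Il4ra, paired with Il2rg or Il13ra1, and signal through Stat6 to genes of alternative activation such as Arg1, Mrc1, Retnla and Chil3. Mrc1 (CD206) is the macrophage mannose receptor, Cd163 takes up haemoglobin bound to haptoglobin, Stab1 is a scavenger receptor of macrophages and sinusoidal endothelium, and Msr1 binds modified lipoproteins.

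The first question was how abundant these transcripts were. Levels per kilobase spanned several orders of magnitude and are described in 3 tiers, whose borders were not set by a test. The receptors Msr1, Il13ra1, Il4ra, Stab1 and Il10ra formed the upper tier, with 42.0 ± 1.60, 21.7 ± 1.03, 16.9 ± 0.607, 13.3 ± 0.605 and 8.53 ± 0.480 RPKM (SD, n = 8). The cytokine Il10 had 2.58 ± 0.545 RPKM and Mrc1 0.904 ± 0.201 RPKM (SD, n = 8). Retnla and Cd163 were close to the limit of detection, with 0.0406 ± 0.0447 and 0.00987 ± 0.00750 RPKM (SD, n = 8).

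In this order of levels per kilobase each gene down to Mrc1 lay above its lower neighbour in 8 of 8 libraries. The exception among neighbours was Retnla, which lay above Cd163 in 5 of 8 libraries, so these 2 genes could not be ordered. Msr1 stood 1.94 times above Il13ra1, Il10ra 3.31 times above Il10, Il10 2.85 times above Mrc1 and Mrc1 22.3 times above Retnla. Against the tested genes, the level of Msr1 was at percentile 93.8, that of Il10 at 42.7 and that of Mrc1 at 27.2. The spread between all 8 libraries was small for the upper tier, with coefficients of variation of 3.58% (Il4ra) to 5.62% (Il10ra), and larger for Il10 (21.1%) and Mrc1 (22.2%).

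**Figure D1:**
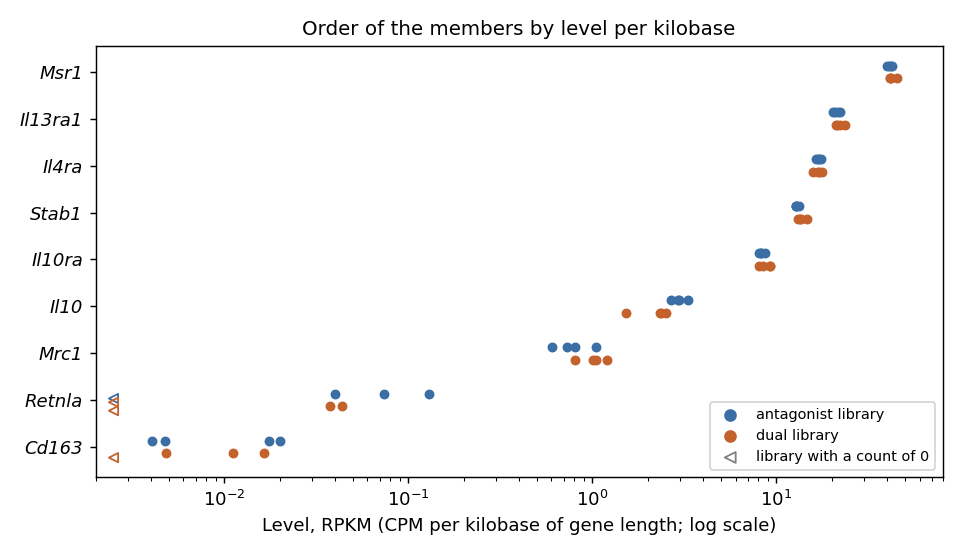
Level of each gene in RPKM (CPM per kilobase, log axis), one point per library, A2A antagonist libraries in blue and dual libraries in orange; open triangles at the left edge mark libraries with a count of 0. Msr1 lies highest at 42.0 RPKM on average, and Retnla and Cd163 overlap at the lower end.

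The comparison of the groups asked whether adding the A3 receptor agonist to the A2A receptor antagonist altered these transcripts. None of the 7 tested genes passed the test: 0 had an adjusted p under 0.05 in edgeR's quasi-likelihood test, against 0.208% of all genes tested (39 of 18756). DESeq2 likewise called 0, with 3 at an unadjusted p under 0.05, although it gave no adjusted p for Il10 and Mrc1. At an unadjusted p under 0.05 there were 3 of the 7, lower for Il10 and higher for Mrc1 and Stab1 in the dual group, where 12.8% of all tested genes stood. Over all genes tested, 1278 of 18756 were lower and 1122 higher at that threshold, which is the background for the lists below. Il10 has the shortest gene length of the 7, at 1310 bases, and Mrc1 and Stab1 have 6371 and 10288 bases. Il4ra and Msr1, with 6002 and 6344 bases, had log2 fold changes of -0.0070 and 0.04. Whether differences over the whole table followed gene length or RNA quality was not tested. The median log2 fold change of the 7 genes was 0.06, with 5 above 0 and 2 below. Over all genes tested the median was 0.0038, with 9664 above 0 and 9092 below.

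Il10 (ENSMUSG00000016529, GRCm38, chromosome 1, 131019845 to 131024974, plus strand) was the gene of the group with the largest difference. It had 3.50, 3.85, 3.90 and 4.36 CPM (scaled with TMM factors) in A2A antagonist libraries 1 to 4, and 3.09, 2.00, 3.29 and 3.04 CPM in dual libraries 1 to 4. Every dual library lay below every A2A antagonist library, and dual library 2 was the lowest. The counts behind these levels were 135, 175, 163 and 198 with the antagonist and 101, 76, 151 and 135 with both ligands. The means were 3.90 ± 0.353 and 2.85 ± 0.582 CPM (SD, n = 4), a fold of 0.733 with a 95% confidence interval of 0.595 to 0.904.

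On the log2 scale this difference of Il10 was -0.45 (SE 0.14, unadjusted p = 0.00592), which did not pass adjustment over all genes in edgeR (adjusted p = 0.182). In an exact two-sided permutation test p was 0.0286, the smallest that 4 against 4 libraries allow. Groups that do not overlap were not rare in these data: 4.06% of all tested genes were lower in every dual library and 7.41% did not overlap in either direction. Among the 7 tested genes Il10 was the 1 whose groups did not overlap. Its log2 fold change was -0.31 without dual library 2 and -0.53 without dual library 3, and its adjusted p lay between 0.0747 and 0.431 over the alternatives that gave one.

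Il10ra (ENSMUSG00000032089, chromosome 9, 45253837 to 45269149, minus strand), the chain that binds interleukin-10, had 28.3, 28.9, 30.4 and 29.0 CPM with the antagonist and 32.4, 32.2, 28.0 and 29.5 CPM with both ligands. Dual libraries 1 and 2 were above all A2A antagonist libraries and dual library 3 was below them. The means were 29.2 ± 0.867 and 30.5 ± 2.15 CPM (SD, n = 4), a difference of 0.06 on the log2 scale (SE 0.05, adjusted p = 0.671 in edgeR). The 95% interval of the log2 fold change, -0.05 to 0.17, bounds the difference that these libraries allow, and the value was 0.03 without dual library 1.

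The partners of this receptor showed no called change either. Of the 5 genes of the receptor and its signalling chain (Il10rb, Jak1, Tyk2, Stat3 and Socs3), 0 were called and 4 had log2 fold changes below 0, with a median of -0.04. The second receptor chain Il10rb and the transcription factor Stat3 had log2 fold changes of -0.04 and -0.03 (adjusted p = 0.725 and 0.772 in edgeR). Il10rb shares exonic bases with Gm21970 on the same strand and Stat3 with Stat5a on the opposite strand.

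Socs3, the feedback inhibitor induced by Stat3, had 276, 283, 314 and 318 CPM with the antagonist and 278, 273, 275 and 252 CPM with both ligands. The groups overlapped only through dual library 1. Its log2 fold change was -0.14 (SE 0.05, unadjusted p = 0.0054), not called over all genes (adjusted p = 0.174 in edgeR). It was called without the low-count filter (adjusted p = 0.0286, range over the alternatives 0.0286 to 0.451). Of the 8 genes listed as responding to interleukin-10 (Socs3, Bcl3, Sbno2, Nfil3, Etv3, Zfp36, Ddit4 and Il1rn), 0 were called, and the median log2 fold change was -0.05, with 6 below 0. At an unadjusted p under 0.05 there was 1 lower, Socs3, and 1 higher, the transcriptional repressor Etv3 (log2 fold change 0.12, SE 0.04, adjusted p = 0.196 in edgeR). Of 10 listed relatives of Il10 and regulators of its transcription, 8 were tested and 0 were called, with 4 lower and 1 higher at an unadjusted p under 0.05 and a median of -0.11. The smallest p of that list was that of Il27, a cytokine that induces Il10 in T cells, with 1.83 ± 0.140 CPM with the antagonist and 1.30 ± 0.0932 CPM with both ligands (SD, n = 4). All dual libraries were below the A2A antagonist libraries for Il27, its log2 fold change was -0.49 (SE 0.16, adjusted p = 0.192 in edgeR), and it shares exonic bases with Apobr on the opposite strand.

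Il4ra (ENSMUSG00000030748, chromosome 7, 125552120 to 125579474, plus strand), the signalling chain shared by the receptors of interleukin-4 and interleukin-13, was the most even of the genes. It had 98.0, 101.4, 102.7 and 105.5 CPM with the antagonist and 106.6, 102.3, 101.6 and 95.4 CPM with both ligands, so that the groups overlapped. Its means were 101.9 ± 3.09 and 101.5 ± 4.61 CPM (SD, n = 4). On the log2 scale the difference was -0.0070 (SE 0.04, adjusted p = 0.966 in edgeR). Its 95% interval reached from -0.09 to 0.08, and its sign turned when antagonist library 4 or dual library 4 was left out. Of its 6002 exonic bases 571 overlap Gm44876 on the opposite strand, and whether reads were counted by strand was not stated.

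Il13ra1 (ENSMUSG00000017057, chromosome X, 36112110 to 36171259, plus strand), which binds interleukin-13 and pairs with Il4ra, had 80.4, 77.4, 82.2 and 75.3 CPM with the antagonist and 78.6, 79.2, 82.7 and 87.8 CPM with both ligands. Dual libraries 3 and 4 lay above all A2A antagonist libraries and the other two within their range. The log2 fold change was 0.06 (SE 0.04, 95% interval -0.03 to 0.15, adjusted p = 0.594 in edgeR), and it was 0.03 without dual library 4.

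Both ligands of these receptors could be read in the same table. Il4 had 162 to 208 counts per library, a mean of 3.85 RPKM and a log2 fold change of 0.09 (SE 0.13, adjusted p = 0.831 in edgeR), and Il13 had 0 to 9 counts. Of the 12 listed genes of interleukin-4 and interleukin-13 signalling, 10 were tested and 0 were called, with a median log2 fold change of 0.01. The transcription factor Stat6 and the shared receptor chain Il2rg had log2 fold changes of 0.0021 and -0.05 (adjusted p = 0.988 and 0.813 in edgeR), and the sign for Stat6 turned in 5 alternatives. Stat6 shares exonic bases with Nab2 on the opposite strand and Il2rg with Gm20489 on the same strand.

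Il13ra2, the decoy receptor that binds interleukin-13, had 17.0, 14.5, 19.9 and 15.1 CPM with the antagonist and 19.8, 17.2, 20.8 and 23.2 CPM with both ligands. Its groups overlapped, and its log2 fold change of 0.29 (SE 0.09, unadjusted p = 0.0063) was not called (adjusted p = 0.186 in edgeR), whereas it was called without the low-count filter (adjusted p = 0.0254, range over the alternatives 0.0254 to 0.437).

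**Figure D2:**
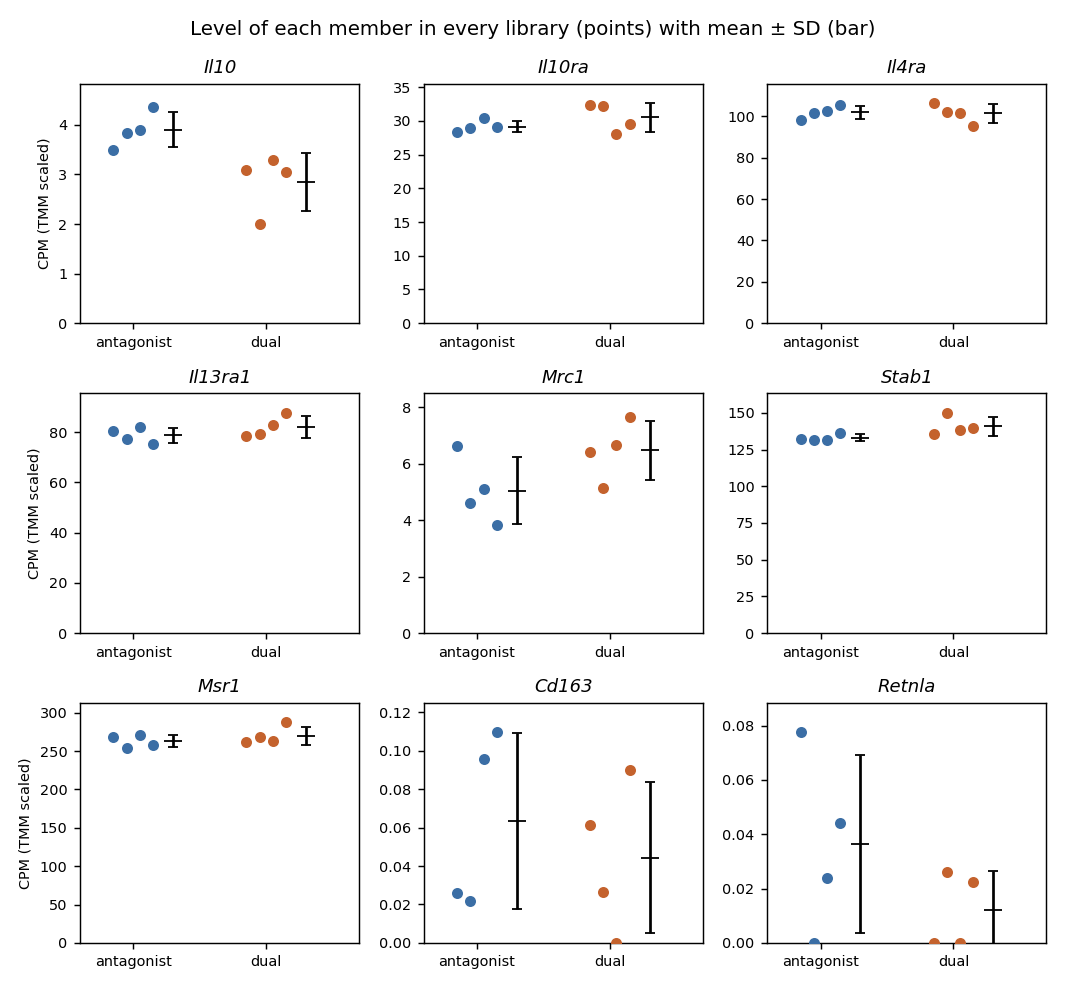
Level of the 9 listed genes in CPM (TMM scaled) in every library, with points for libraries 1 to 4 from left to right and bars for mean ± SD; each panel has its own axis from 0. For Il10 all 4 dual libraries lie below the 4 A2A antagonist libraries, and in the other panels the groups overlap.

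Mrc1 (ENSMUSG00000026712, chromosome 2, 14229392 to 14332057, plus strand), the mannose receptor used to mark alternatively activated macrophages, was counted 256, 210, 214 and 174 times with the antagonist and 209, 196, 306 and 340 with both ligands. Its levels were 6.63, 4.61, 5.12 and 3.83 CPM in the A2A antagonist group and 6.40, 5.15, 6.66 and 7.66 CPM in the dual group. Antagonist library 1 lay within the range of the dual group, above dual libraries 1 and 2, so the groups overlapped. The means were 5.05 ± 1.18 and 6.47 ± 1.04 CPM (SD, n = 4), a fold of 1.29 with a 95% interval of 1.05 to 1.59.

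The log2 fold change of Mrc1 was 0.37 (SE 0.14, unadjusted p = 0.0188), with an adjusted p of 0.275 in edgeR. It was largest without antagonist library 1, at 0.52, and smallest without antagonist library 4, at 0.26. The unadjusted p was above 0.05 without antagonist library 4 (0.0804) or dual library 4 (0.0887), and the adjusted p lay between 0.0706 and 0.583 over the alternatives that gave one.

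Stab1 (ENSMUSG00000042286, chromosome 14, 31139013 to 31168641, minus strand), the gene of the scavenger receptor stabilin, had 132.1, 131.7, 131.4 and 136.4 CPM with the antagonist and 135.3, 150.2, 138.4 and 140.0 CPM with both ligands. Antagonist libraries 1 to 3 lay within a narrow range below the dual group, and antagonist library 4 lay above dual library 1. The means were 132.9 ± 2.38 and 141.0 ± 6.43 CPM (SD, n = 4). A log2 fold change of 0.09 (SE 0.04, 95% interval 0.01 to 0.16, unadjusted p = 0.0319) was not called (adjusted p = 0.331 in edgeR), and it was 0.05 without dual library 2. Of its 10288 exonic bases 112 overlap Nt5dc2 on the opposite strand.

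Msr1 (ENSMUSG00000025044, chromosome 8, 39581685 to 39642673, minus strand), the class A scavenger receptor, had 268.0, 254.2, 271.4 and 258.4 CPM with the antagonist and 262.1, 267.9, 263.8 and 287.6 CPM with both ligands. Dual library 4 was the highest, and the other three lay within the range of the A2A antagonist group. The means were 263.0 ± 8.04 and 270.4 ± 11.8 CPM (SD, n = 4), apart by 0.04 on the log2 scale (SE 0.04, 95% interval -0.04 to 0.12, adjusted p = 0.696 in edgeR). Without dual library 4 this difference was 0.0089.

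Cd163 (ENSMUSG00000008845, chromosome 6, 124304656 to 124330527, plus strand) was barely detected, its counts being 1, 1, 4 and 5 under the antagonist and 2, 1, 0 and 4 under both ligands. Its levels were 0.0634 ± 0.0459 and 0.0444 ± 0.0395 CPM (SD, n = 4), within reach of the 0.0653 to 0.0919 CPM that a count of 0 allows at these depths (3 counts per library, for counting error only). Retnla (ENSMUSG00000061100, chromosome 16, 48842551 to 48844461, plus strand), a secreted product of alternatively activated macrophages, was counted 3, 0, 1 and 2 times in the A2A antagonist group and 0, 1, 0 and 1 times in the dual group. In exact two-sided permutation tests p was 0.543 for Cd163 and 0.286 for Retnla. Without the low-count filter their adjusted p-values in edgeR were 0.922 and 0.776, and no difference was detectable at this depth. Of the 31-base words of Retnla 5.45% occur in other genes, mostly its relative Retnlg, which had 0 counts in all libraries except dual library 4, with 2.

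**Figure D3:**
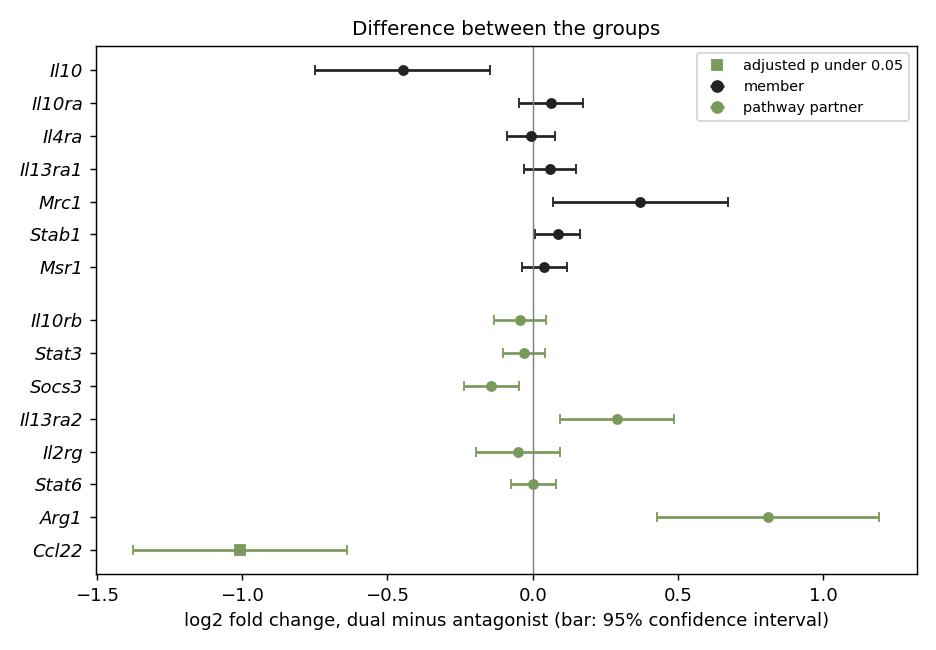
Log2 fold change, dual minus A2A antagonist, with 95% confidence intervals, for the 7 tested genes (black) and 8 partners of their pathways (green); squares mark an adjusted p under 0.05. Il10 lies at -0.45 and Mrc1 at 0.37, and the square is Ccl22 at -1.01.

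The promoters of Mrc1, Stab1 and Retnla are shown because 2 of these genes had an unadjusted p under 0.05 with higher levels in the dual group and Retnla, a textbook target of Stat6, was near 0. Each sequence runs from 250 bases before to 50 bases after the start site in RefSeq (GRCm38.p6), which held 7 of the 10 genes; Il10, Il10ra and Msr1 were not among them. Capitals mark GAGGAA, the core bound by the macrophage factor PU.1, or its reverse complement, and in Retnla also TTCNNNNGAA, a STAT site with a spacer of 4 bases, and in Stab1 TGACG, the core of cyclic AMP response elements.
Mrc1 (chr2:14229164-14229463, plus strand): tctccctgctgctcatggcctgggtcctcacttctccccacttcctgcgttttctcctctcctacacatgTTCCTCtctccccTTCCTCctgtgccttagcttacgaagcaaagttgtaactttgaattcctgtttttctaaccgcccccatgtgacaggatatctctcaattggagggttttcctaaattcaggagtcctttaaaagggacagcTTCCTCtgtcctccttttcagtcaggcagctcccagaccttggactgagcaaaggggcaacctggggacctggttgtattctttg
Stab1 (chr14:31168592-31168891, minus strand): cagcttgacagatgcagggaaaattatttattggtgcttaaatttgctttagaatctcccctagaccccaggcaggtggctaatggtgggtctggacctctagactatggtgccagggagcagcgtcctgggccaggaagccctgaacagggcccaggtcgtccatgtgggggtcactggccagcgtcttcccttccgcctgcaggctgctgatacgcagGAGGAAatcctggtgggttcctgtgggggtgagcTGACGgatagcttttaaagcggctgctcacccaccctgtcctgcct
Retnla (chr16:48842359-48842658, plus strand): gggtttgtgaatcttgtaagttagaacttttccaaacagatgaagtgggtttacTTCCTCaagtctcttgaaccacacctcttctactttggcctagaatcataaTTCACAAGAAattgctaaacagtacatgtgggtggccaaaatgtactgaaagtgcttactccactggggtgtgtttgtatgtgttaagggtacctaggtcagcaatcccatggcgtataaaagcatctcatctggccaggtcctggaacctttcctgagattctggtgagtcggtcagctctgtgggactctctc

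In the promoter of Mrc1 the PU.1 core occurred 3 times, at -180, -167 and -35 from the start site, all on the minus strand. Stab1 held 1 core at -30 and TGACG at 4 bases past the start. Retnla held 1 core at -196 and the STAT site at -145. The promoter of Chil3 held 1 STAT site with a spacer of 3 bases (TTCNNNGAA) at -172, while those of Cd163, Il4ra and Il13ra1 held none of the motifs searched. Both strands were searched, and the matches describe letters and not binding. Of 32851 promoters of the same length, 28.3% held GAGGAA, 8.3% TTCNNNGAA, 6.95% TTCNNNNGAA, 20.8% TGACG, 1.79% the full response element TGACGTCA, which contains TGACG, and 7.81% TGANTCA, the AP-1 site.

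Of the 14 listed genes of alternative activation outside the group, 8 were tested, and Ccl22, a chemokine of alternatively activated macrophages, was the 1 called. It fell by 1.01 on the log2 scale (SE 0.17, adjusted p = 0.0240 in edgeR). It was no longer called without antagonist library 3 or 4 or dual library 3 (adjusted p = 0.0791, 0.0932 and 0.0859). In those settings 6, 0 and 0 genes were called over the whole table. Leaving out each library in turn kept the log2 fold change of Ccl22 between -1.11 and -0.92 (unadjusted p = 7.4e-06 to 0.000103 in edgeR). Ccl22 was low, with a mean of 0.75 RPKM, 83 to 106 counts per library with the antagonist and 39 to 54 with both ligands. DESeq2 gave no adjusted p for it (unadjusted p = 9.7e-07). Arg1, the arginase of alternatively activated macrophages, had 45.3, 39.8, 53.1 and 33.8 CPM with the antagonist and 121.7, 54.8, 66.3 and 59.8 CPM with both ligands. Its groups did not overlap, with dual library 1 far above the others, and its log2 fold change of 0.81 (SE 0.18, adjusted p = 0.0651 in edgeR) was 0.49 without that library. It was called without dual library 2 (adjusted p = 0.0387) and without the low-count filter (5.2e-08), and its adjusted p reached up to 0.199 over the alternatives. The median of the 8 tested genes was -0.01.

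Among 18 other scavenger and endocytic receptors 16 were tested and 0 were called, with 4 higher and 1 lower at an unadjusted p under 0.05 and a median log2 fold change of 0.05. The smallest p was that of Siglec1, the sialic acid receptor of macrophages, at 259, 277, 271 and 289 CPM with the antagonist and 334, 335, 295 and 278 CPM with both ligands. Its groups overlapped only through dual library 4. The log2 fold change was 0.18 (SE 0.05, adjusted p = 0.138 in edgeR). Siglec1 was called by DESeq2 (adjusted p = 0.0366), without dual library 4 (0.0440) and without the low-count filter (0.00793). It was not called in the other alternatives, where its adjusted p reached up to 0.294.

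Markers of the other cells that the cultures could hold were set beside these values. The summed level of 12 listed markers of border-associated macrophages, which in the brain carry Mrc1, Cd163 and Stab1, was 174 to 199 RPKM in the A2A antagonist group and 189 to 220 RPKM in the dual group, with 10 tested, 0 called, 4 higher and 1 lower at an unadjusted p under 0.05 and a median log2 fold change of 0.14. Of these, Pf4 had 80.3 RPKM and Siglec1, also in the list of scavenger receptors, 40.9 RPKM, and the others had at most 22.0 RPKM (Dab2). Lyve1 had 0 to 6 counts, and Cd209f, Folr2 and Clec10a had 1.31, 0.257 and 0.0255 RPKM. The 1 lower was Ms4a7, at -0.15 (adjusted p = 0.220 in edgeR), and Siglec1 was among the 4 higher. The 13 listed microglial markers summed to 615 to 687 RPKM with the antagonist and 563 to 603 RPKM with both ligands, without overlap. Most of that sum was C1qa, a complement gene, which fell by 0.24 (SE 0.04, adjusted p = 0.0240 in edgeR). That call was lost without antagonist library 2, 3 or 4 or dual library 3 (0.0648 to 0.0932). In those settings 5, 6, 0 and 0 genes were called over the whole table. Leaving out each library in turn kept the log2 fold change of C1qa between -0.28 and -0.22 (unadjusted p at most 7.7e-05 in edgeR). DESeq2 called C1qa (adjusted p = 1.37e-05). The other 12 markers summed to 199 to 207 and 192 to 207 RPKM. Over the 13 markers 9 had log2 fold changes below 0, with 3 lower and 1 higher at an unadjusted p under 0.05 and a median of -0.05. Besides C1qa these were Fcrls at -0.33, Aif1 at -0.21 and Csf1r at 0.11 (adjusted p = 0.0952, 0.110 and 0.171 in edgeR), named after their values were seen.

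Astrocyte markers (8 listed) summed to 1089 to 1143 RPKM in the A2A antagonist group and 1119 to 1180 RPKM in the dual group, and fibroblast markers (6 listed) to 282 to 316 and 284 to 354 RPKM. Endothelial markers reached 9.14 to 11.8 and 9.57 to 12.04 RPKM, oligodendrocyte markers 71.8 to 74.6 and 66.4 to 73.5 RPKM, neutrophil markers 10.4 to 12.6 and 9.51 to 12.4 RPKM and lymphocyte markers 0.0595 to 0.225 and 0.0619 to 0.143 RPKM. None of the tested genes of these 6 lists was called, and the smallest unadjusted p of each tested list was that of Slc1a2, Lum, Kdr, Mog and Camp, with log2 fold changes of 0.12, 0.23, 0.14, -0.43 and -0.29 (adjusted p = 0.204, 0.288, 0.409, 0.410 and 0.232 in edgeR). Of the fibroblast markers 5 of 6 had log2 fold changes above 0, with a median of 0.11, and 3 had an unadjusted p under 0.05: Lum, Col3a1 (0.14) and Dcn (0.11). The part of these cells in the values of Il10, Mrc1 and Stab1 was not tested.

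**Figure D4:**
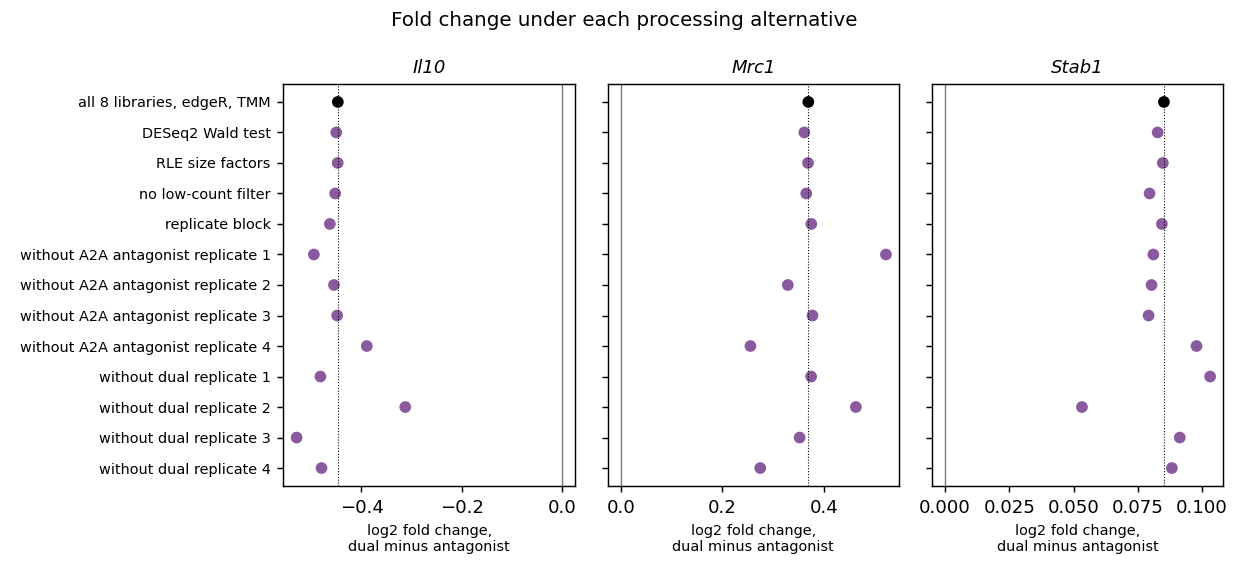
Log2 fold change, dual minus A2A antagonist, of Il10, Mrc1 and Stab1 under each processing alternative (purple) and as reported (black, dotted line); each panel has its own axis and a grey line at 0. Il10 stays below 0, between -0.53 and -0.31, and Mrc1 above 0, between 0.26 and 0.52.

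Activated cells that had received vehicle carried no sample of this series, and only their pooled means were used. In the authors' mean columns, on a scale of normalised counts, Mrc1 stood at 217.6 with the antagonist and 649 with vehicle, and Cd163 at 2.73 and 11.2. For Stab1 these means were 5733 and 7384, for Il13ra1 3399 and 3986, for Msr1 11345 and 12151 and for Il4ra 4397 and 4602. Il10 stood at 168 with the antagonist and 164 with vehicle, Il10ra at 1259 and 1156 and Retnla at 1.57 and 1.24. The per-library columns of the control belong to no sample of this series and were not used, so these means are given without a spread and no difference between them was tested.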

How the data were processed

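RNA-seq was analysed in 8 libraries from primary cultures of mouse microglia, in 2 groups of 4. According to the methods, the authors aligned reads with HISAT2; the submitters' processing notes name featureCounts 1.5.0-p3 and mm10. The deposited values tested were raw counts per gene, without normalization or pooling. A second deposited table gave group means of counts scaled by size factors (a signal in the sense of normalised coverage of genes), copied as the authors' means. Its 9 per-sample columns of control libraries, and the fold changes and p-values of both tables, were not used.

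Counts were tested with edgeR 4.0.16 (R 4.3.3): filterByExpr with a minimum count of 10, TMM factors, the quasi-likelihood F test and Benjamini-Hochberg adjustment over 18756 genes. DESeq2 1.42.0, RLE size factors, no filter, a replicate block and leaving out each library were alternatives; those for genes outside the group and the marker sum without C1qa were added after the data were seen. Libraries of a group differed by 3.80 to 9.43 times the counting noise (chi-square per degree of freedom), and none was counted as a duplicate. Samples with the same replicate number did not deviate together. Scripts were tested on simulated data.

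The genes and lists were chosen with earlier results of these data known. Named were all 10 genes, fixed partners, the called genes of each list or else its gene of smallest p, and for Il10, Mrc1 and Cd163 the 3 genes of most similar profile (minimum log2 CPM of 3). All 9 listed genes had the same coordinates in GENCODE M21. Genes overlapping others on the opposite strand are uncertain, since strand use was not stated. Il10rb and Il2rg are uncertain too: they share 569 and 728 exonic bases with genes on the same strand, which counting by strand would not separate.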

Additional observations from a re-analysis of the deposited data

Results flagged for a closer look

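Among 52 groups of 4 libraries over the named genes, 2 held a library set apart from the other three by more than Dixon's critical value, which chance exceeds in about 1 in 20. The A2A antagonist group of Retnlg, with a count of 0 throughout, could not be tested. Stab1 stood at 136.4 CPM in A2A antagonist library 4, against 131.4 to 132.1 CPM in the others of its group. Retnlg, a relative of Retnla, stood at 0.0451 CPM (2 counts) in dual library 4 and at 0 in the others. Beside such values of 0 any count passes the critical value, so the rate of 1 in 20 does not apply to Retnlg.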

How the results depend on the processing

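The count of 0 called genes among the 7 tested held under all 12 alternatives, with no adjusted p from DESeq2 for Il10 and Mrc1. Without A2A antagonist library 4 or dual library 3 the whole table had 0 called genes, so those settings could not have given another count. The number of genes called over the whole table did not hold. It was 39 as reported, 381 with DESeq2 (adjusted p given for 11313 genes), 366 without the low-count filter and 17 with the replicate block. Leaving out 1 library gave 0 to 172: 172 without A2A antagonist library 1, 5 and 6 without libraries 2 and 3 of that group, and 0 without A2A antagonist library 4 (1802 genes at an unadjusted p under 0.05) or dual library 3 (2092). The cause was not tested.

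Libraries with the same replicate number had deviations correlated at -0.146, -0.048, -0.074 and -0.200, and none correlated best with its own number, so the block has no basis in a known pairing. With it Il10 had a log2 fold change of -0.46, Mrc1 of 0.38 and Stab1 of 0.08 (unadjusted p = 0.0553 in edgeR), while Ccl22 was no longer called (adjusted p = 0.0567) and Arg1 was (0.0189).

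The sign of Il4ra turned without A2A antagonist library 4 (0.0098) and without dual library 4 (0.021), and leaving out 1 library gave -0.032 to 0.021. For Stat6 the sign turned with DESeq2 (-0.00031) and without the low-count filter (-0.0034), and leaving out 1 library (A2A antagonist 1 or 2 or dual 4 for a change of sign) gave -0.012 to 0.018. Stab1 kept an unadjusted p under 0.05 in 4 of 8 settings that left out 1 library, Mrc1 in 6 and Il10 in 8. The order by level was that reported in 5 of 8 libraries. Retnla and Cd163 exchanged places in 2 libraries, and in dual library 3 both had a count of 0. The summed microglial marker level differed by -75.6 RPKM (dual minus A2A antagonist) with C1qa and by -5.01 RPKM without it. At these depths differences of Cd163 and Retnla could not be resolved.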

Other observations

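Further genes of the same pathways, chosen after their values were seen, had an unadjusted p under 0.05 without passing adjustment over all genes. The transcription factor Egr2, induced by interleukin-4 in macrophages, had a log2 fold change of 0.56 (SE 0.18, adjusted p = 0.192 in edgeR), and the matrix gene Fn1 one of 0.15 (SE 0.05, adjusted p = 0.197). Among scavenger and endocytic receptors, Marco, Lrp1 and Colec12 had log2 fold changes of 0.23, 0.16 and 0.13, and Cxcl16, which also binds oxidised lipoprotein, one of -0.10. Marco was more abundant than Msr1 per kilobase, with 129 against 42.0 RPKM. The transcriptional repressor Prdm1 had a log2 fold change of 0.22, and Tgfb1 and Ebi3, which encodes a subunit shared by interleukin-27, had -0.12 and -0.21.

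Across the 8 libraries the profiles most like that of Il10, among 11062 genes, were those of Gyg (Pearson r = 0.98, Spearman rho = 0.95), Plscr1 (r = 0.95, rho = 0.83) and Rftn1 (r = 0.94, rho = 0.88). For Mrc1 they were Wnk3 (r = 0.98, rho = 0.93), Uhrf1bp1l (r = 0.97, rho = 0.90) and Mir22hg (r = 0.96, rho = 0.90). These are the highest of many correlations over libraries that include both groups, and they are given as a description of the profiles. Cd163 was too low for such a profile.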
